A study of Homo sapiens with 12 samples.

Results

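The genes described here are the 36 cell cycle, DNA replication and DNA repair genes among the 1676 genes of the authors' deposited table. They were chosen by gene symbol, from a fixed pattern of family names (MCM, CDC, CDCA, CDK, cyclin, CENP, RPA, AURK, PLK, BUB, E2F, PARP, RAD, FANC and a few named genes). All 36 matched a gene of GENCODE release 29, and 0 were removed as pseudogenes. Families of the pattern with no gene in the table (ORC, RFC, replicative polymerases, XRCC) are not described. RNA was measured in SH-SY5Y cells, a human neuroblastoma line derived from a bone metastasis, 24 h after transfection with a construct encoding tau, the microtubule-binding protein. The constructs were Tau-K174Q-S199E, Tau-K174Q, Tau-S199E and Tau-WT, with 3 libraries each, and every library therefore came from cells given some form of tau. Glutamine in place of lysine (K174Q) mimics acetylation, glutamate in place of serine (S199E) mimics phosphorylation, and Tau-WT was named by the submitters as the reference. The promoter of the constructs, the share of cells transfected and whether the libraries came from separate cultures are not stated by the labels, and libraries of untransfected cells were not analysed here. Libraries were made from 400 ng of RNA with a kit that reads the 3′ ends of polyadenylated transcripts. In bulk RNA, fewer cells in a cycle phase and less RNA per cell cannot be told apart.

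A cell copies its DNA in S phase and divides it in mitosis. Before S phase, MCM proteins are loaded on origins as the core of the replicative helicase, which the kinase CDC7 and the factor CDC45 then switch on. E2F factors set the transcription of many S phase genes, and E2F4 and E2F5 are the repressive members that act in resting cells. Genes of mitosis are held down in resting cells through the cell cycle homology region (CHR) of their promoters and switched on later with the help of NF-Y, which binds CCAAT. SH-SY5Y cells divide in culture, unlike neurons, so these genes are in use in the line.

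Promoters are shown for 5 members that the comparisons below turn on: 3 subunits of the same helicase, an enzyme of thymidine synthesis and a mitotic cyclin. Each stretch runs from 250 bases before to 50 bases after an annotated start site, and comes from RefSeq (GRCh38.p14). Capitals mark matches to the E2F sites TTTCGCGC, TTTGGCGC and TTTCCCGC, to the CHR sequences TTTGAA and TTCGAA, and to CCAAT, searched on both strands. The windows are chr3:127598161-127598460 for MCM2 and chr2:135876394-135876693 for MCM6, on the plus and the minus strand. They are chr6:52284693-52284992 (minus) for MCM3, chr18:657403-657702 (plus) for TYMS and chr15:59104896-59105195 (plus) for CCNB2.
MCM2: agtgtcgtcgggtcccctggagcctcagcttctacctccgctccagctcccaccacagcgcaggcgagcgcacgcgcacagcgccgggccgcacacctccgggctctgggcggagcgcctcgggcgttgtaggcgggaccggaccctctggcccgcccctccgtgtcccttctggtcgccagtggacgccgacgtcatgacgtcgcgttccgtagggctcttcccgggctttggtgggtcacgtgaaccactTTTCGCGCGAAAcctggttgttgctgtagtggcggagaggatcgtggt
MCM6: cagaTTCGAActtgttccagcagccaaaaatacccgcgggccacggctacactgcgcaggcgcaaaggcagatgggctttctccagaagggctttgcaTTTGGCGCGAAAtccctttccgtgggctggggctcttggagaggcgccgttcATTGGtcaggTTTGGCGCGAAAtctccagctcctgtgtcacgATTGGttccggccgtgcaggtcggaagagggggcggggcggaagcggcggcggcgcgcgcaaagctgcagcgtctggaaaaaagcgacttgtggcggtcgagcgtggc
MCM3: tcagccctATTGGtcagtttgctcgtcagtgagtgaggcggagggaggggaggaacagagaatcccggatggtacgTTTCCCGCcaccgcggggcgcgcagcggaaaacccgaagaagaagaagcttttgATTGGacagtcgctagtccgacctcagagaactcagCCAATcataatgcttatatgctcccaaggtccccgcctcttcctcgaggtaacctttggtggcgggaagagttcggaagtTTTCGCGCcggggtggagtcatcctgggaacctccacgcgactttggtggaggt
TYMS: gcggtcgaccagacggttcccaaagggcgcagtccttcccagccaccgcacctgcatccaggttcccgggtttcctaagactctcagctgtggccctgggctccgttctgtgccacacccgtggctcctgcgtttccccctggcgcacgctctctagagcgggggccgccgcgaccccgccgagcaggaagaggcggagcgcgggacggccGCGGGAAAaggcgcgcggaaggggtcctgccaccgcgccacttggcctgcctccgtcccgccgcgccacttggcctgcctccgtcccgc
CCNB2: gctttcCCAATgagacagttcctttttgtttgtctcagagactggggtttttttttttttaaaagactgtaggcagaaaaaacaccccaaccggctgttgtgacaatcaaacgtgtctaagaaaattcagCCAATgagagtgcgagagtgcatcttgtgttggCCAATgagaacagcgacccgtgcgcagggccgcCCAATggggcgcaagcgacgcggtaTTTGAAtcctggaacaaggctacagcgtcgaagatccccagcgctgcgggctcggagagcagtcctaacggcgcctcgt

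In MCM2 the E2F site TTTCGCGC began 2 bases after the start site on one strand and overlapped its own copy on the other. MCM6 held TTTGGCGC at bases 99 and 161 of the window, each overlapping TTTCGCGC on the other strand. MCM3 held TTTCGCGC at base 247 of the window and TTTCCCGC at base 77, and TYMS held TTTCCCGC at base 212 on the minus strand. CCNB2 held no E2F site of these letters, but 4 CCAAT boxes and TTTGAA at base 222. The CHR sequence TTCGAA also stood at base 5 of MCM6, with CCAAT at bases 151 and 193 on the minus strand. MCM3 held CCAAT at base 167, and at bases 9 and 131 on the minus strand. Of the 31 members with a RefSeq promoter entry (all but RPA2, RPA3, MCM4, TPX2 and E2F5), 9 held any of the E2F sites: CDC37, CDC7, CDCA7, CDK11B, CDK19, MCM2, MCM3, MCM6 and TYMS. That is 29% of the members, against 6.32% of the 1282 table genes and 3.30% of all 27305 genes with an entry. A CHR sequence was found in 10 members (32.3%, against 13.2% of table genes and 19.5% of all genes), and CCAAT in 14 members (45.2%, against 43.6% of table genes and 39.7% of all genes). Over single windows of that length, 2.74% of 35116 held an E2F site. A match describes the letters and is no evidence of binding.

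The deposited library values are standardised: over 12 libraries a gene averages 0 with an SD of 1. Values and differences below are in SD units of that gene rather than fold changes. Levels of different genes cannot be compared, and sequencing depth cannot be read from such values. Every gene of the table was selected for an effect by the authors: the highest adjusted p in the authors' deposited table is 0.0499. The sign of the deposited fold change, whose contrast is not named in the file, was opposite to that of Tau-S199E minus Tau-WT in 1676 of 1676 genes. It equalled in all 1676 the sign of the interaction, which is the K174Q effect on the S199E background less the K174Q effect on wild-type tau, and 34 of the 36 genes passed the test of that interaction (97.0% of the table). Directions in Tau-S199E against Tau-WT therefore restate the selection of the table, and a high share of calls is a property of the table, not of the cell cycle genes. Library 12 of Tau-S199E stood apart from its group: it was the highest or the lowest of the 12 libraries in 29 of the 36 genes, and in 77.1% of the table. Library 18 of Tau-K174Q-S199E also stood apart from libraries 16 and 17.

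In the authors' deposited table, 24 of the 36 genes have a negative log2 fold change, with a median of -1.91, and 12 have a positive one, with a median of 0.94. Over all 1676 genes, 886 (52.9%) are negative and 790 positive. Negative values in the authors' deposited table run from -4.21 for RAD54L, -4.14 for PLK4 and -3.29 for E2F5 to -1.0 for CENPF. Positive values run from 0.70 for TPX2 to 2.12 for CDK19 and 2.74 for CDK3. Over all genes the median is -1.62 for negative and 1.16 for positive values. By median, the members' negative values are thus larger in size than the table's, and their positive values smaller. With the sign ignored, the median size is 1.37 log2 units for the members and 1.36 for all genes. The smallest deposited adjusted p of a member belongs to TYMS (0.000703). The plot of deposited fold changes by role shows that proteins of the same machine carry opposite signs: MCM3 (0.75) and MCM4 (0.76) are positive, while MCM2 (-1.26) and MCM6 (-1.40) are negative. RPA2 (0.96) and RPA3 (-1.34), subunits of the same complex, also differ in sign in the authors' deposited table. No gene named MCM5, MCM7 or RPA1 is in the table, so these complexes are seen in part. Both signs are common in the table, and whether such splits exceed those of other genes was not tested. The authors' cluster 4 holds 18 members (50%, against 31.8% of the table), and clusters 1, 2 and 3 hold 6 each.

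**Figure D1:**
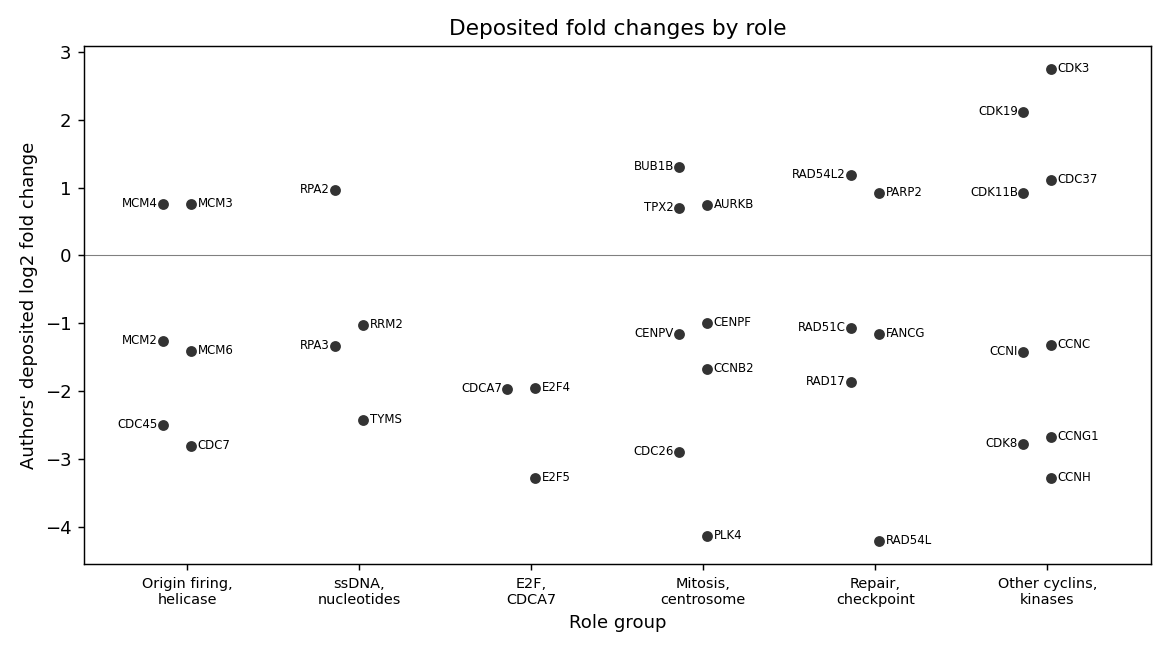
The log2 fold change of the authors' deposited table (vertical axis) for each of the 36 genes, in 6 columns by role, 1 point per gene with its symbol. All 3 genes of the E2F and CDCA7 column lie below 0, and every other column has genes on both sides, from -4.21 (RAD54L) to 2.74 (CDK3).

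Tau-S199E was set against Tau-WT to read the phosphorylation mimic by itself. With Tau-S199E, 23 of the 36 genes rose and 9 fell by limma (adjusted p under 0.05), which is 88.9% of the members against 90.0% of the table. By direction, 63.9% of the members rose, against 48.3% of the table, and 25.0% fell, against 41.8%. The genes that rose differed by a median of 1.92 SD units and the genes that fell by a median of -2.17. MCM4, BUB1B, RAD54L2 and CDK8 did not pass the test, and limma's moderated variance called 35 genes (97.2%, against 98.4% of the table). The Tau-S199E and Tau-WT libraries did not overlap in 34 of the 36 genes, against 94.2% of the table, MCM4 and CDK3 being the exceptions. Without library 12, 14 genes passed (9 higher and 5 lower), against 49.7% of the table. These 14 genes, which passed in each of the 12 fits that left out 1 library, were RRM2, RPA3, TYMS, RPA2, CDCA7, E2F4, CDC7, FANCG, PARP2, AURKB, TPX2, CCNC, CCNI and CDK11B. The share of the table that passed in all 12 fits is not given here, so the count cannot be set against it. All 36 genes kept their direction without library 12. The difference without library 12 was divided by the full difference gene by gene, and the median of these ratios was 0.81.

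**Figure D2:**
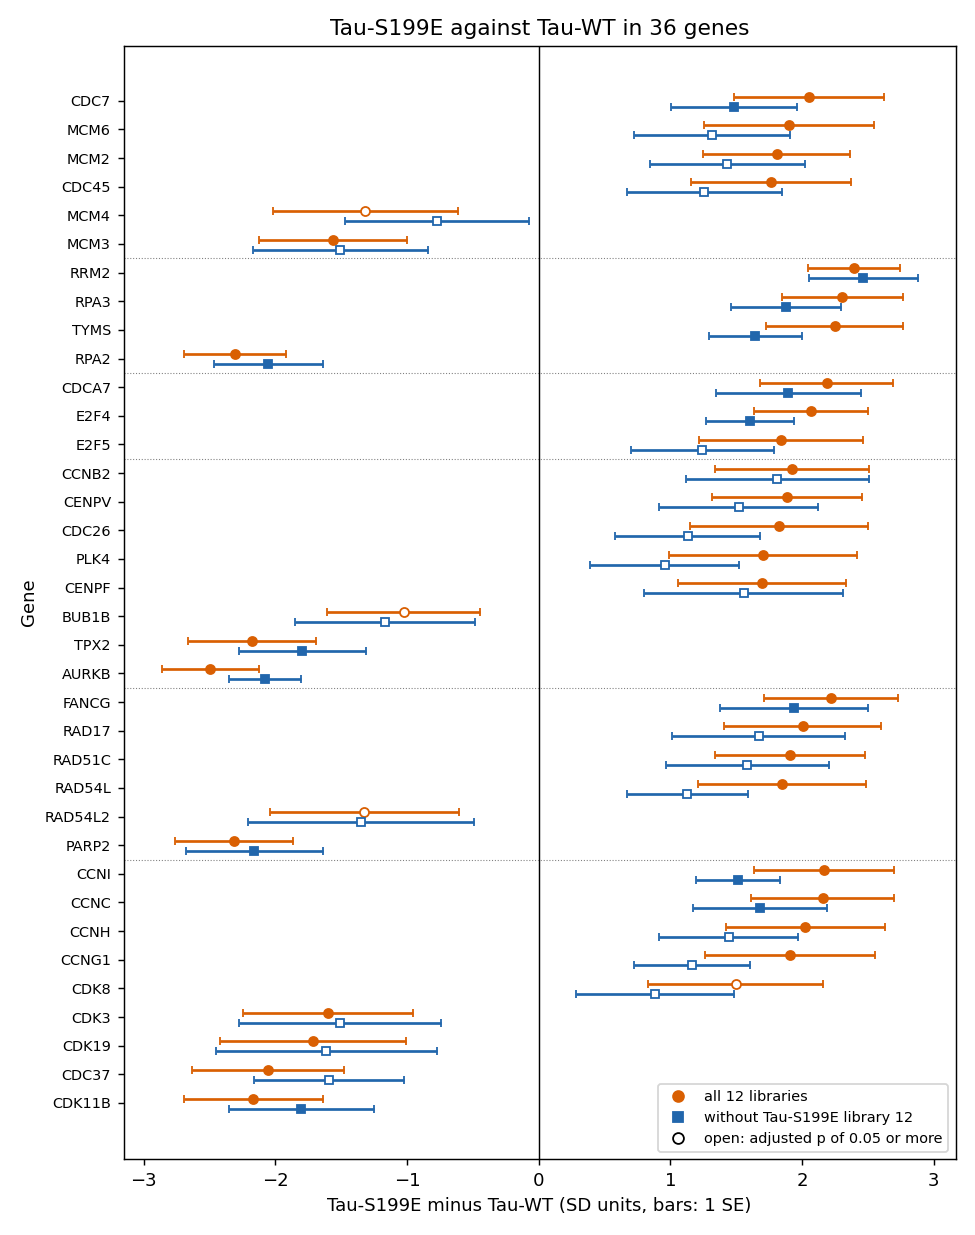
Difference between Tau-S199E and Tau-WT for each of the 36 genes in SD units (horizontal axis), grouped by role, with bars of 1 SE. Circles use all 12 libraries and squares leave out Tau-S199E library 12. Filled symbols have an adjusted p under 0.05, which 32 circles and 14 squares do, and every square lies on the same side of 0 as its circle.

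Of the 6 genes of origin firing and the helicase, 4 rose with Tau-S199E (CDC7, MCM6, MCM2 and CDC45), MCM3 fell and MCM4 did not pass. In each of the following sentences, the values of a construct stand in order of library number (16, 17 and 18 for Tau-K174Q-S199E, 4, 5 and 6 for Tau-K174Q, 10, 11 and 12 for Tau-S199E, 1, 2 and 3 for Tau-WT). MCM2, a helicase subunit (chr3:127598223-127622436, GRCh38, plus strand), had standardised values of -1.38, -0.49 and 0.89 in Tau-K174Q-S199E, 0.99, 0.60 and 0.70 in Tau-K174Q, 0.02, 0.60 and 1.44 in Tau-S199E and -1.2, -1.16 and -1.0 in Tau-WT. Every Tau-S199E library lay above every Tau-WT library, and so did all 3 Tau-K174Q libraries, while Tau-K174Q-S199E was spread across the range. Tau-S199E minus Tau-WT came to 1.81 ± 0.56 SD units (SE, limma adjusted p = 0.0195), and 1.43 ± 0.59 (adjusted p = 0.0677) without library 12. CDC7, the kinase that triggers origins (chr1:91500893-91525764, plus strand), had 0.07, -0.47 and -0.06 in Tau-K174Q-S199E, -0.13, 0.34 and 1.15 in Tau-K174Q, 0.97, -0.36 and 2.01 in Tau-S199E and -1.16, -1.32 and -1.05 in Tau-WT. Tau-WT was the lowest group without overlap, and the difference of Tau-S199E from it was 2.05 ± 0.57 SD units (SE, limma adjusted p = 0.0149). MCM4, a subunit of the same helicase, had 0.93, 1.53 and -0.63 in Tau-K174Q-S199E, -0.93, -0.62 and -0.47 in Tau-K174Q, 0.16, -0.32 and -1.72 in Tau-S199E and -0.24, 1.38 and 0.92 in Tau-WT. Its Tau-S199E and Tau-WT libraries overlapped, and the difference of -1.32 ± 0.70 SD units (SE, limma adjusted p = 0.0998) did not pass. Without library 12 it was -0.77 ± 0.70 (adjusted p = 0.312). MCM3, whose values were singled out after they were seen because it belongs to the same ring, had 0.88, 1.11 and -1.0 in Tau-K174Q-S199E, -1.21, -1.21 and -0.42 in Tau-K174Q, -0.56, -0.27 and -0.59 in Tau-S199E and 0.70, 1.72 and 0.85 in Tau-WT. It fell by 1.56 SD units with Tau-S199E (limma adjusted p = 0.0303), and the lower values of the Tau-S199E libraries did not overlap those of Tau-WT. MCM6 averaged 1.08 ± 1.03 with Tau-S199E and -0.82 ± 0.42 with Tau-WT (SD, n = 3 each). CDC45 averaged 0.92 ± 0.89 with Tau-S199E and -0.85 ± 0.35 with Tau-WT. Without library 12, MCM2, MCM6, CDC45 and MCM3 no longer passed, with adjusted p from 0.0677 for MCM2 to 0.0888 for CDC45.

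**Figure D3:**
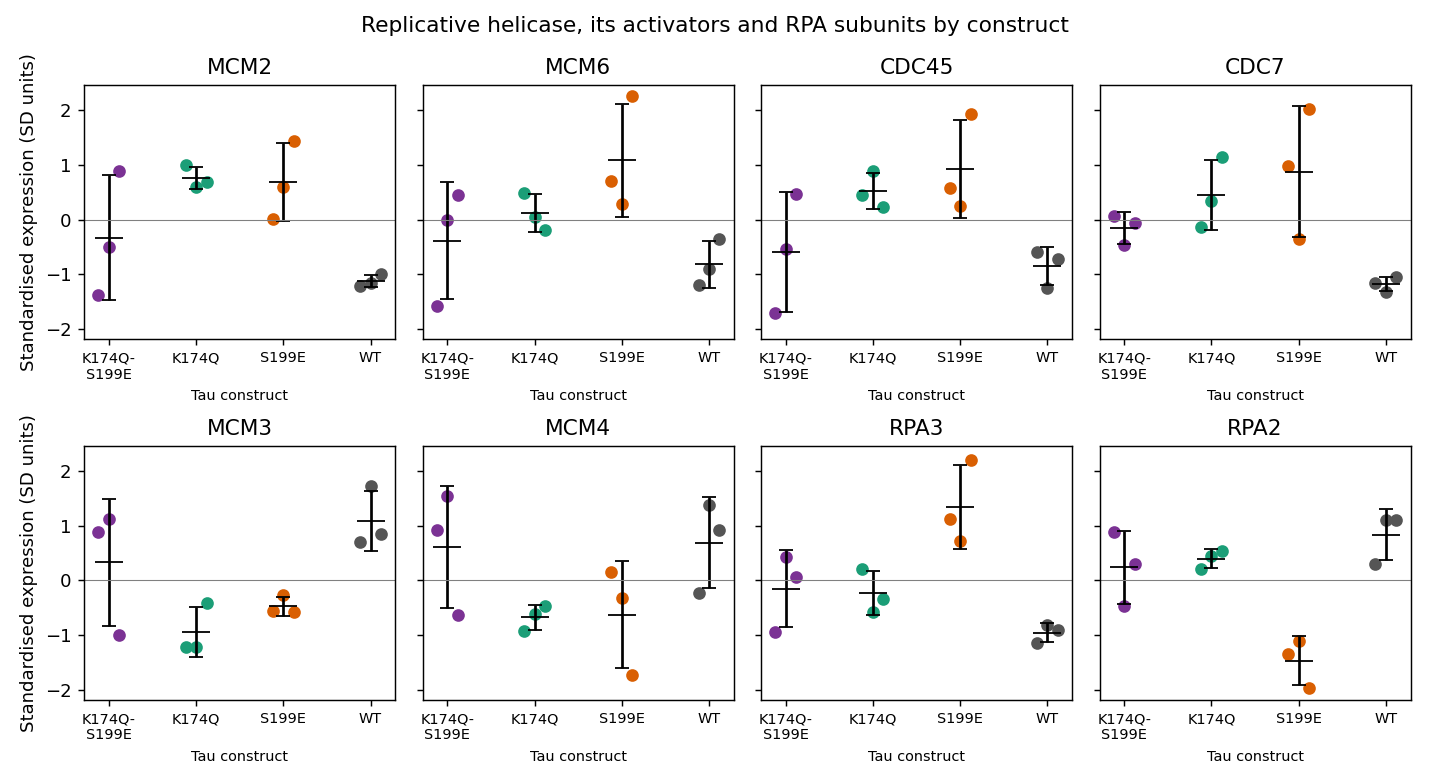
Standardised expression (SD units, vertical axis) of 6 genes of origin firing and of RPA3 and RPA2, by tau construct, with 1 point per library and the mean ± SD of 3 libraries. MCM2, MCM6, CDC45, CDC7 and RPA3 lie higher with Tau-S199E than with Tau-WT, whereas MCM3 and RPA2 lie lower, and MCM4 overlaps.

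The plot of the helicase and RPA genes shows the same split in the proteins that coat single-stranded DNA. RPA3, the small subunit of replication protein A, rose by 2.31 SD units with Tau-S199E (adjusted p = 0.00983, limma), whereas RPA2, its middle subunit (chr1:27891524-27914746, minus strand), fell. RPA2 had 0.88, -0.46 and 0.30 in Tau-K174Q-S199E, 0.20, 0.45 and 0.54 in Tau-K174Q, -1.34, -1.1 and -1.97 in Tau-S199E and 0.29, 1.11 and 1.1 in Tau-WT. All 3 Tau-S199E libraries were lower than the other 9, and the difference from Tau-WT was -2.3 ± 0.39 SD units (SE, limma adjusted p = 0.00968) and -2.05 ± 0.41 (adjusted p = 0.0274) without library 12. RRM2, the small subunit of ribonucleotide reductase, which makes deoxynucleotides, lies at chr2:10120698-10131419 on the plus strand. It had -1.01, -0.50 and 0.11 in Tau-K174Q-S199E, 0.71, 0.02 and 0.11 in Tau-K174Q, 1.3, 1.43 and 1.15 in Tau-S199E and -0.57, -1.57 and -1.17 in Tau-WT. The Tau-S199E libraries lay within a narrow range above all others, library 12 included, and the difference from Tau-WT was 2.39 ± 0.35 SD units (SE, limma adjusted p = 0.00968). Leaving library 12 out gave 2.47 ± 0.41 (adjusted p = 0.0236). A second annotated gene, AC007240.1, overlaps RRM2 on the same strand over its 3′ end, so reads may be shared. TYMS, which makes thymidylate, rose by 2.25 SD units with Tau-S199E (adjusted p = 0.0104, limma), and by 1.65 without library 12. ENOSF1 overlaps the 3′ end of TYMS on the other strand, and the labels do not state the strand setting of the counting. Another annotated gene likewise overlaps the 3′ end on the other strand in MCM2, CDK11B, CDK3, E2F5, CDC26, CCNH, RAD54L and CENPV.

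Both E2F factors and CDCA7 rose with Tau-S199E, and E2F4 and CDCA7 also did so without library 12. E2F4, a factor that represses cell cycle genes with pocket proteins (chr16:67192169-67198918, plus strand), had -0.06, -1.13 and -0.16 in Tau-K174Q-S199E, 1.09, 0.57 and 0.55 in Tau-K174Q, 0.33, 0.52 and 1.82 in Tau-S199E and -1.09, -1.35 and -1.09 in Tau-WT. The Tau-WT libraries were the lowest, with library 17 of Tau-K174Q-S199E among them. Tau-S199E minus Tau-WT came to 2.07 ± 0.43 SD units (SE, limma adjusted p = 0.0100). CDCA7, a zinc finger protein induced by E2F and MYC (chr2:173354820-173368997, plus strand), had -0.92, -0.20 and 0.34 in Tau-K174Q-S199E, 0.86, -0.04 and 0.43 in Tau-K174Q, 0.95, 0.49 and 1.6 in Tau-S199E and -2.0, -0.44 and -1.08 in Tau-WT. Tau-WT library 1 was the lowest of the 12, and Tau-S199E minus Tau-WT was 2.19 ± 0.50 SD units (SE, limma adjusted p = 0.0104). E2F5, a factor close to E2F4, averaged 0.72 ± 1.09 with Tau-S199E and -1.12 ± 0.25 with Tau-WT (adjusted p = 0.0252 by limma, 0.0775 without library 12).

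Genes of mitosis and the centrosome went both ways: 5 of 8 rose with Tau-S199E, 2 fell and 1 did not pass. AURKB, the kinase of the chromosomal passenger complex (chr17:8204733-8210600, minus strand), had 0.49, -0.19 and -0.20 in Tau-K174Q-S199E, -0.22, 0.15 and 0.25 in Tau-K174Q, -1.04, -0.71 and -2.12 in Tau-S199E and 1.25, 0.93 and 1.43 in Tau-WT. No Tau-S199E library reached those of any other construct, and no other construct reached Tau-WT. Tau-S199E minus Tau-WT came to -2.49 ± 0.37 SD units (SE, limma adjusted p = 0.00968), and -2.08 ± 0.27 (adjusted p = 0.0147) without library 12. TPX2, a spindle protein that activates Aurora A (chr20:31739271-31801805, plus strand), had 0.24, 0.45 and -0.65 in Tau-K174Q-S199E, -0.80, -0.30 and -0.36 in Tau-K174Q, -1.2, 0.26 and -1.62 in Tau-S199E and 1.56, 1.24 and 1.17 in Tau-WT. Tau-WT was the highest group without overlap, and the difference of Tau-S199E from it was -2.18 ± 0.49 SD units (SE, limma adjusted p = 0.0104). BUB1B, which encodes the spindle checkpoint kinase BubR1 (chr15:40161023-40221136, plus strand), had -1.14, 1.05 and 0.44 in Tau-K174Q-S199E, -0.69, -1.66 and -1.03 in Tau-K174Q, -0.25, -0.04 and 0.28 in Tau-S199E and 0.83, 0.49 and 1.74 in Tau-WT. Its Tau-S199E libraries lay below those of Tau-WT without overlap, but the difference of -1.03 ± 0.58 SD units (SE, limma adjusted p = 0.116) did not pass, and Tau-K174Q held the lowest group mean. Without Tau-WT library 3 the difference was -0.67. The annotated readthrough gene BUB1B-PAK6 covers the 3′ end of BUB1B on the same strand.

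The mitotic genes that rose with Tau-S199E were CCNB2, CENPV, CDC26, PLK4 and CENPF. CCNB2 (cyclin B2) averaged 0.83 ± 0.20 with Tau-S199E and -1.09 ± 0.97 with Tau-WT, and AC092757.2 overlaps its 3′ end on the same strand. CENPV, a centromere protein, differed by 1.89, and CDC26, a subunit of the anaphase-promoting complex, by 1.83. PLK4, the kinase of centriole duplication, differed by 1.7, and CENPF, a kinetochore protein, by 1.7. Without library 12 the difference of PLK4 was 0.96 and that of CDC26 was 1.13, over 1.5 times smaller, whereas that of CENPF was 1.56. None of these 5 genes passed without library 12, where their limma adjusted p ran from 0.0590 for CCNB2 to 0.149 for PLK4.

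In the repair and checkpoint group, FANCG, RAD17, RAD51C and RAD54L rose with Tau-S199E, PARP2 fell and RAD54L2 did not pass. FANCG, of the Fanconi anaemia core complex for crosslink repair (chr9:35073835-35080016, minus strand), had -1.29, 0.32 and 0.12 in Tau-K174Q-S199E, 0.13, -0.51 and 0.10 in Tau-K174Q, 0.56, 1.48 and 1.86 in Tau-S199E and -0.53, -1.45 and -0.79 in Tau-WT. Its Tau-S199E libraries lay above all others, with the smallest gap at library 10, and the difference from Tau-WT was 2.22 ± 0.51 SD units (SE, limma adjusted p = 0.0104). PARP2, an enzyme that attaches ADP-ribose at DNA breaks (chr14:20343582-20357905, plus strand), had 0.36, 0.72 and -0.24 in Tau-K174Q-S199E, -0.47, -0.60 and 0.04 in Tau-K174Q, -1.49, -0.45 and -1.43 in Tau-S199E and 0.70, 2.01 and 0.85 in Tau-WT. Tau-WT library 2 was the highest of the 12, and Tau-S199E minus Tau-WT was -2.31 ± 0.45 SD units (SE, limma adjusted p = 0.00981). RAD54L2, a helicase-like relative of the repair protein RAD54L (chr3:51541144-51668667, plus strand), had 2.03, -0.18 and -0.83 in Tau-K174Q-S199E, -1.27, -0.75 and -0.17 in Tau-K174Q, -0.83, -0.15 and -0.42 in Tau-S199E and 0.10, 1.32 and 1.16 in Tau-WT. Library 16 of Tau-K174Q-S199E was the highest of the 12, and the value of Tau-S199E minus Tau-WT, -1.32 ± 0.72 SD units (SE, limma adjusted p = 0.105), did not pass. TEX264 overlaps its 3′ end on the same strand. RAD17, which loads the checkpoint clamp, differed by 2.0. RAD51C, a protein of homologous recombination, differed by 1.91, and RAD54L, a DNA translocase of the same pathway, by 1.85. RAD17, RAD51C and RAD54L did not pass without library 12 (limma adjusted p 0.0612, 0.0611 and 0.0660), and the difference of RAD54L was then 1.13.

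The remaining 9 genes carry cyclin or kinase names, and most of them are known for transcription rather than for the cycle: with Tau-S199E 4 rose, 4 fell and 1 did not pass. CCNI, cyclin I (chr4:77047158-77076005, minus strand), had -0.70, -0.0038 and 0.11 in Tau-K174Q-S199E, 0.06, -0.25 and -0.52 in Tau-K174Q, 0.97, 0.33 and 2.61 in Tau-S199E and -1.04, -0.90 and -0.65 in Tau-WT. All Tau-S199E libraries lay above the other 9, library 12 farthest, and the difference from Tau-WT was 2.17 ± 0.53 SD units (SE, limma adjusted p = 0.0114), or 1.51 ± 0.32 (adjusted p = 0.0274) without library 12. CDK11B, a kinase linked to transcription and splicing (chr1:1635227-1659012, minus strand), had 1.05, 0.28 and -0.18 in Tau-K174Q-S199E, -0.35, -0.25 and -0.03 in Tau-K174Q, 0.09, -1.7 and -1.9 in Tau-S199E and 1.09, 1.17 and 0.73 in Tau-WT. Library 10 of Tau-S199E lay among the Tau-K174Q-S199E libraries, and Tau-S199E minus Tau-WT was -2.17 ± 0.53 SD units (SE, limma adjusted p = 0.0111). CDK11B has a near-identical copy, CDK11A, so its reads may be split between them. CDK8, a kinase of the Mediator complex (chr13:26254104-26405238, plus strand), had -0.98, -0.90 and -0.31 in Tau-K174Q-S199E, 1.26, -0.51 and 0.70 in Tau-K174Q, 0.30, 0.23 and 2.09 in Tau-S199E and -1.47, -0.06 and -0.34 in Tau-WT. Its Tau-S199E libraries lay above those of Tau-WT without overlap, and the difference of 1.49 ± 0.66 SD units (SE, limma adjusted p = 0.0583) did not pass. Without library 12 it was 0.89 ± 0.60 (adjusted p = 0.192).

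Its cyclin partner CCNC rose by 2.16 SD units with Tau-S199E (adjusted p = 0.0120, limma), whereas its paralogue CDK19 fell, with a difference of -1.72 and an adjusted p of 0.0465. CCNH, a cyclin of the CDK-activating kinase in TFIIH, differed by 2.03, and CCNG1, a cyclin known as a p53 target, by 1.91, or by 1.16 without library 12. CDC37, a co-chaperone that brings kinases to Hsp90, differed by -2.05. CDK3, a kinase described at exit from rest, differed by -1.6 (adjusted p = 0.0433), and its Tau-S199E and Tau-WT libraries overlapped. Without Tau-WT library 1 its difference was -1.06 (limma adjusted p = 0.139). The readthrough gene TEN1-CDK3 covers CDK3 on the same strand. Of these 6 genes, CCNC passed without library 12, and CDC37 gave an adjusted p of 0.0514 and CCNH of 0.0539 there (limma).

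**Figure D4:**
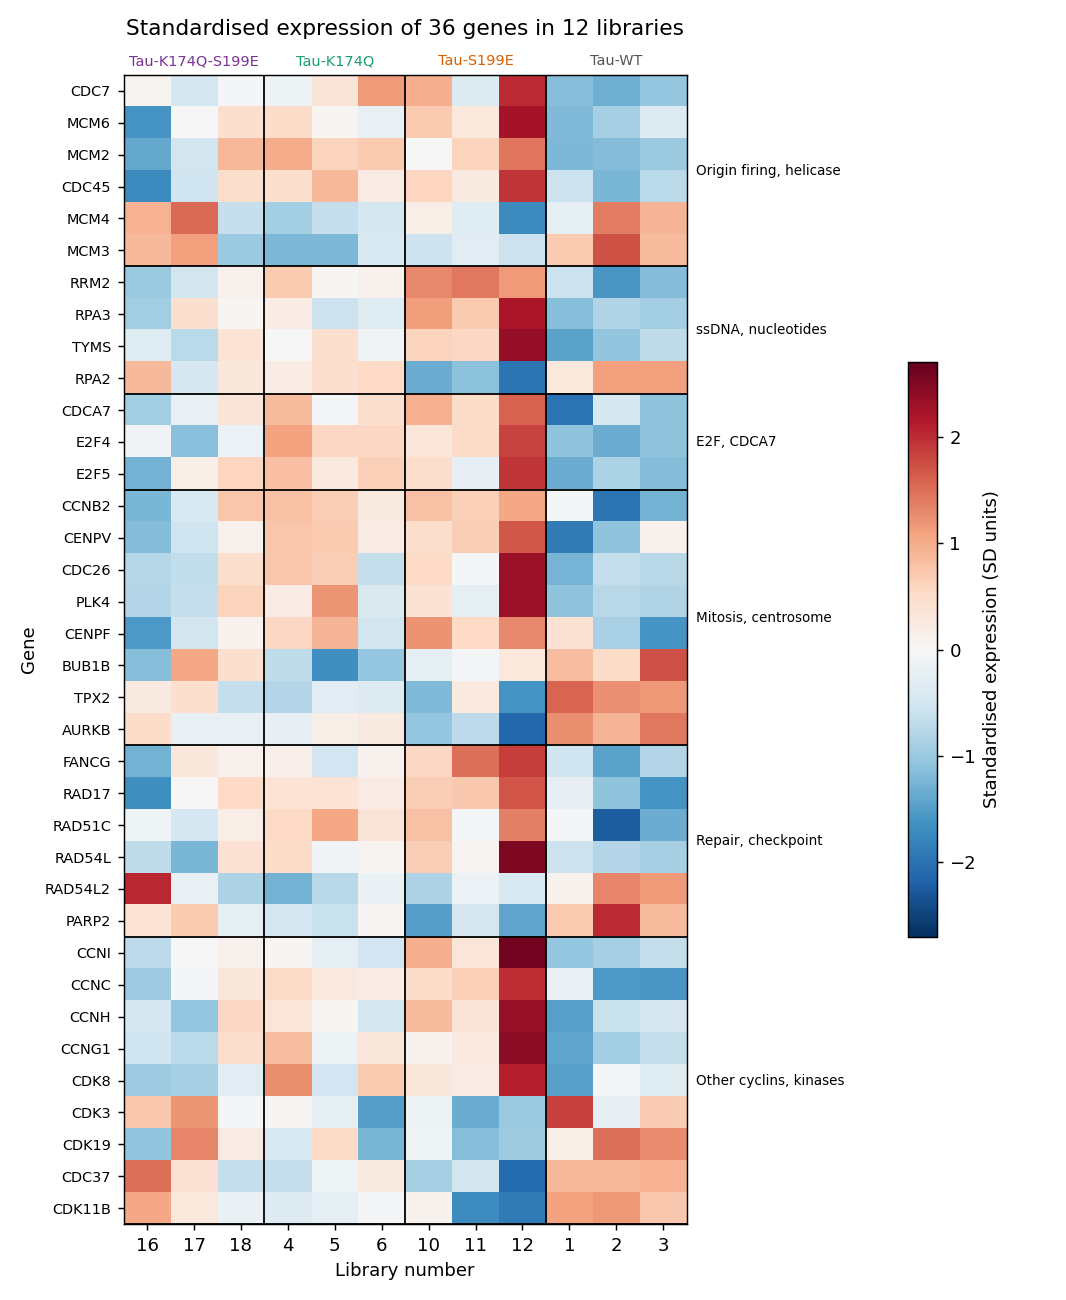
Standardised expression (colour, SD units) of the 36 genes (rows, grouped by role) in 12 libraries (columns, by construct). Library 12 is the column of strongest colour, the highest or lowest of 12 in 29 genes, and library 18 differs from libraries 16 and 17.

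Tau-K174Q was set against Tau-WT to read the acetylation mimic by itself. The sign of this difference was opposite to the deposited sign in 36 of 36 members, and equalled it in 1 of 1676 genes. Directions in this comparison therefore also restate the selection of the table. No member passed by limma, as in the whole table (0.0% of 1676), and the lowest adjusted p was 0.0660, shared by 8 members. At an unadjusted p under 0.05, 15 members passed (10 higher and 5 lower), which is 41.7% against 51.9% of the table (32.4% higher and 19.5% lower). Limma's moderated variance called 22 (61.1%, against 59.9%). With it the called members all had an SE of 0.56 SD units, so such calls are a cut on the size of the difference. The largest differences were -2.15 for BUB1B, -2.03 for MCM3 and 1.91 for E2F4. The BUB1B, MCM3 and E2F4 libraries of Tau-K174Q did not overlap those of Tau-WT, which held for 30 of the 36 genes, against 80.7% of the table. Without library 18, which belongs to neither construct and enters through the shared residual variance, 10 members passed (27.8%, against 40.3% of the table): MCM2, RRM2, E2F4, CDCA7, CCNB2 and RAD51C higher, and MCM3, PARP2, TPX2 and BUB1B lower.

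Tau-K174Q-S199E against Tau-WT tests the construct with both mimics. No member passed (0.0% of the table), 2 did at an unadjusted p under 0.05 (5.56%, against 7.58% of the table), and the moderated variance called 0. The 2 genes were AURKB, with a mean of 0.03 ± 0.40 in Tau-K174Q-S199E and 1.2 ± 0.25 in Tau-WT (SD, n = 3 each), and TPX2, with 0.01 ± 0.58 and 1.32 ± 0.21 in the same order. AURKB differed by -1.17 and TPX2 by -1.31, and the limma adjusted p was 0.533 for both. The groups did not overlap in 3 genes, against 11.6% of the table: AURKB and TPX2, which were lower, and CDC7, which was higher by 1.02. For the other genes the libraries of both constructs overlapped, which does not show that they were alike. The difference was positive in 848 of the 886 table genes with a negative deposited sign. It was negative in 694 of the 790 with a positive sign, so directions here largely restate the selection of the table.

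Adding K174Q to S199E was tested by Tau-K174Q-S199E against Tau-S199E. By limma 0 members passed (0.119% of the table), with a lowest adjusted p of 0.0644 shared by RRM2, RPA2 and AURKB. At an unadjusted p under 0.05, 20 members passed (5 higher and 15 lower), which is 55.6% against 56.4% of the table (27.1% higher and 29.3% lower). The moderated variance called 24 (7 higher and 17 lower), which is 66.7% against 68.8% of the table (34.4% in either direction). RRM2 differed by -1.76, RPA2 by 1.71 and AURKB by 1.33, each without overlap between the groups. Non-overlapping groups were seen in 16 genes, against 43.4% of the table. Without library 18, 24 members passed by the test used here (7 higher and 17 lower, 66.7%, against 78.5% of the table), among them RRM2 with -2.05, MCM2 with -1.62 and CDC37 with 2.09. This comparison shares the Tau-S199E libraries with Tau-S199E against Tau-WT, so the 2 are not independent. Its difference was negative in 885 of the 886 table genes with a negative deposited sign. It was positive in 787 of the 790 with a positive sign, so these directions also restate the selection of the table.

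Adding S199E to K174Q was tested by Tau-K174Q-S199E against Tau-K174Q. No member passed (0.0% of the table) or was called with the moderated variance, and 1, E2F4, reached an unadjusted p under 0.05 (8.23% of the table), with a difference of -1.19. Groups did not overlap in E2F4, RAD51C and CENPV, against 11.2% of the table. Without library 18, 1 gene passed by limma, MCM3, with a difference of 1.94 (adjusted p = 0.0374), which is 2.78% of the members against 8.47% of the table. With all libraries, the difference was negative in 851 of the 886 table genes with a negative deposited sign. It was positive in 762 of the 790 with a positive sign, so directions here largely restate the selection of the table. Tau-K174Q against Tau-S199E likewise gave no call by limma or with the moderated variance (0.0597% of the table by limma), and 6 members at an unadjusted p under 0.05 (16.7%, against 16.1% of the table). These were RPA2 and AURKB, with differences of 1.86 and 1.35, and RRM2, FANCG, CCNI and RPA3, with -1.01, -1.39, -1.54 and -1.58. RPA2 had the lowest adjusted p, 0.161. The groups did not overlap in 10 genes, against 36.2% of the table. This difference was negative in 710 of the 886 table genes with a negative deposited sign and positive in 706 of the 790 others.

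The means over genes show how the libraries of each construct lay. The 24 genes with a negative deposited sign had a mean of -0.35 ± 0.62 SD units in Tau-K174Q-S199E, 0.32 ± 0.21 in Tau-K174Q, 1.0 ± 0.81 in Tau-S199E and -0.97 ± 0.08 in Tau-WT (SD over 3 libraries). Those with a positive sign had 0.30 ± 0.50, -0.43 ± 0.11, -0.85 ± 0.38 and 0.99 ± 0.19 for the same constructs. The Tau-WT libraries lay closest together in the negative set and the Tau-K174Q libraries in the positive set, and those of Tau-S199E and Tau-K174Q-S199E were spread by libraries 12 and 18. In the negative set the Tau-S199E libraries 10, 11 and 12 had 0.66, 0.41 and 1.93, and the Tau-K174Q-S199E libraries 16, 17 and 18 had -0.92, -0.43 and 0.31. Library 18 thus lay on the side of Tau-S199E and Tau-K174Q, and libraries 16 and 17 on the side of Tau-WT. By gene, library 16 was nearer to the Tau-WT mean than to the Tau-S199E mean in 31 of 36 genes and library 17 in 30, but library 18 in 8 (93.4%, 85.0% and 20.0% of the table). The mean of Tau-K174Q-S199E lay between those of Tau-S199E and Tau-WT in 35 genes (91.8% of the table), and that of Tau-K174Q in 31 (84.4% of the table). These counts follow the sign that selected the genes and are descriptions.

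**Figure D5:**
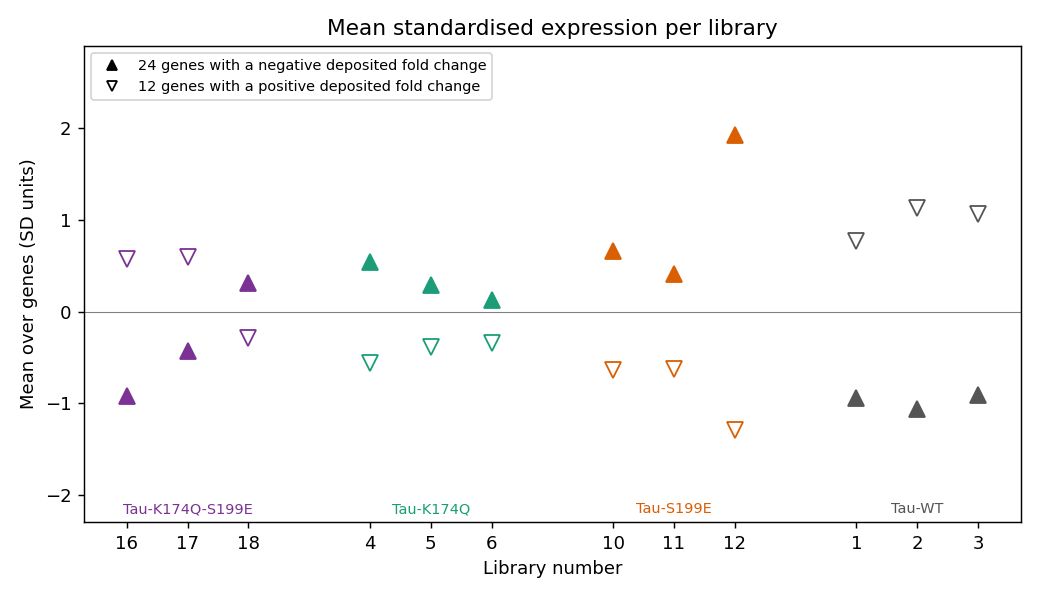
Mean standardised expression (SD units, vertical axis) in each of the 12 libraries (horizontal axis, by construct) of the 24 genes with a negative deposited fold change (filled triangles) and of the 12 with a positive one (open triangles). Library 12 is farthest from 0 in both sets (1.93 and -1.29), and library 18 has the opposite order from libraries 16 and 17.

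Other genes of the same pathways came from 4 lists outside the naming pattern, of which 32 genes in all were in the table. Of 41 other genes of the G1/S transition and S phase, 4 were in the table, and 2 rose and 2 fell with Tau-S199E. CHAF1A (-2.26) and CDT1 (-2.13) fell, a chromatin assembly subunit and an origin licensing factor, and FEN1 (2.07), the flap nuclease of lagging strands, rose. Of 80 other mitotic genes 9 were in the table, with 3 up, 5 down and 1 not passing. MYBL2 (-2.42), a factor that switches on mitotic genes, CKAP5 (-2.22), a microtubule polymerase, and SKA2 (-2.14), of the kinetochore, had the smallest p and fell.

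Of 27 inhibitors of the cycle and G1 regulators 8 were in the table, and 7 rose and 1 fell. GADD45B (2.37), a stress-induced growth arrest gene, CDKN3 (2.27), a phosphatase of CDKs, and SKP2 (2.16), a ubiquitin ligase subunit that removes a CDK inhibitor, rose. The repair list had 11 of 91 genes in the table, with 5 up, 5 down and 1 not passing, led by RMI2 (2.19), of the complex that dissolves recombination intermediates. RNF168 (-1.84), a ubiquitin ligase at breaks, and POLK (-2.16), a polymerase that copies past lesions, fell. The median difference of the 4 lists, in the order given, was -0.05, -1.85, 2.11 and -1.34 SD units, against 1.41 for the whole table, of which 48.3% rose and 41.8% fell. By deposited sign, the table's median was 1.99 for negative and -1.99 for positive genes. The median of a list with both signs therefore depends mainly on the balance of signs. That of the repair list, -1.34, is the value of REV1, which did not pass. Without library 12, 10 of the 32 genes passed as higher and 8 as lower, and 14 did not pass, FEN1 among them (adjusted p = 0.0511 by limma). In that fit 49.7% of the table passed. The list of inhibitors and G1 regulators then had 5 genes higher, 1 lower and 2 that did not pass. In the other 5 comparisons 0 of the 32 genes passed by limma, and at most 0.119% of the table did.

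Markers of cell state were read in the same comparison. MKI67, the proliferation marker, was the only 1 of 3 such markers in the table and fell with Tau-S199E. It had -0.60, -0.03 and -1.95 in the Tau-S199E libraries, against 1.08, 1.81 and 0.09 in the Tau-WT libraries, with a mean of -0.86 ± 0.99, against 0.99 ± 0.86 with Tau-WT (SD, n = 3 each; difference -1.85, adjusted p = 0.0300 by limma). All 3 of the 11 mesenchymal neuroblastoma markers in the table, CD44 (2.11), S100A6 (2.20) and S100A10 (1.90), rose. In this comparison 48.3% of the table rose and 41.8% fell. The deposited fold change is negative for these 3 markers and positive for MKI67, so the directions restate the selection of the table. Without library 12 the difference of S100A10 was 1.16 (limma adjusted p = 0.0521) and that of MKI67 was -1.31 (adjusted p = 0.0998), and neither passed. MKI67 also did not pass without Tau-WT library 1 or 2, nor S100A10 without any 1 of the Tau-WT libraries. None of 16 sympathoadrenal markers was in the table, and since the table holds selected genes alone, the labelled cell type could not be checked against them. The part of these marker differences in the cell cycle results was not tested.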

How the data were processed

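The genes and lists described here were chosen with earlier results of these data known. STAR 2.5.3a, RSEM 1.2.31, DESeq2 and GRCh38 appear in the submitters' processing notes, without role or order. How strand was set and how genes were filtered, transformed and clustered is not given in the sources used here. A table of 1676 genes was deposited. Its 12 library columns are a score: the values show that the authors standardised each gene (largest absolute gene mean 5.7e-15, gene SD 1.0000). The fold change is on the log2 scale and comes with an adjusted p-value and a cluster number, per the file headers. Depth is unknown, so no counting interval or floor can be given, and a count test could not be used.

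Each column was matched to its construct by name; the names hold a library number, not the replicate number of the labels. Columns also carry an unexplained code, which was not used. All per-library columns were used. With limma 3.58.1 (R 4.3.3), a mean per construct was fitted to the 12 libraries with the ordinary residual variance of each gene (8 residual degrees of freedom), and p-values (two-sided) were adjusted by Benjamini-Hochberg over 1676 genes, threshold 0.05. The fit was tested on simulated data. P-values measure only spread between libraries, possibly technical. Moderated variances, the 6 libraries compared alone, ranks and leaving out each library were tried. Per-library values are given for the 2 genes with the smallest p in Tau-S199E against Tau-WT in each role group and for genes that did not pass there, and 3 genes by p from each list are named. Coordinates come from GENCODE release 29 (GRCh38) and promoters from RefSeq (GRCh38.p14). Of the 36 genes, 23 overlap another annotated gene, 8 of them on the same strand and 5 of those over the 3′ end.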

Additional observations from a re-analysis of the deposited data

Results flagged for a closer look

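The effect of K174Q differed between the S199E and the wild-type background in 34 of the 36 genes, by the interaction (K174Q-S199E minus S199E, less K174Q minus WT) in limma at an adjusted p under 0.05. It was positive in 11 genes and negative in 23, and 97.0% of the table passed the same test. PLK4 (-2.32 SD units, adjusted p = 0.0512) and CDK19 (2.26 SD units, adjusted p = 0.0544) did not pass. The sign of the authors' deposited fold change equals the sign of this interaction in all 1676 genes, so the count restates how the table was selected. A single library far from its group was not tested for, since each construct has 3 libraries.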

How the results depend on the processing

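Changing the residual variance changed the number of calls. The moderated variance called 22 of the 36 genes in Tau-K174Q against Tau-WT, where the ordinary variance called 0. In Tau-K174Q-S199E against Tau-S199E the moderated variance called 24 and the ordinary variance 0. In Tau-S199E against Tau-WT the moderated variance called 35 and the ordinary variance 32. Standardising by gene disturbs the likeness of residual variances that moderation assumes. The moderated SE was 0.56 SD units whichever member was called in Tau-K174Q against Tau-WT, so such a call depends on the size of the difference alone. With the 6 libraries of a comparison alone, Tau-S199E against Tau-WT gave 20 calls (72.0% of the table was called) and Tau-K174Q against Tau-WT gave 15 (48.9% of the table). Ranks over the 12 libraries gave 8 calls in Tau-K174Q-S199E against Tau-S199E (24.5% of the table). The fit on 6 libraries has fewer residual degrees of freedom and other variances, and the cause of the other changes was not tested. Leaving out 1 library at a time gave 14 to 32 calls in Tau-S199E against Tau-WT. The count was 14 without library 12, where 49.7% of the table was called. It was 20 without Tau-WT library 2, for which no table share is given here. Leaving out 1 library gave 0 to 10 in Tau-K174Q against Tau-WT (10 without library 18, and 1, BUB1B, without library 16) and 0 to 24 in Tau-K174Q-S199E against Tau-S199E (24 without library 18). The range was 0 to 1 in Tau-K174Q-S199E against Tau-K174Q (MCM3 without library 18, where 8.47% of the table was called). It was 0 to 0 in Tau-K174Q-S199E against Tau-WT and in Tau-K174Q against Tau-S199E. No gene changed direction in Tau-S199E against Tau-WT under these alternatives. No paired analysis was possible because the columns carry library numbers and not the replicate numbers of the labels. Standardising removed depth and level, so a pseudocount, another normalization or a filter on low values could not be tried.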
